A study of Mus musculus with 12 samples.

Results

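Genes of cholesterol and fatty acid synthesis were followed across embryonic limb and adult lung peripheral neural stem cells, control neural stem cells and fibroblasts of the mouse. The set was named gene by gene and held 31 members, made up of 18 enzymes of the sterol pathway, 9 enzymes that make, elongate or desaturate fatty acids, and 4 genes of their control and transport (Srebf1, Srebf2, Insig1 and Stard4). A member entered when a probe with its symbol was detected above background (detection p under 0.05) on 2 or more of the 12 arrays. Of the 31, 28 had such a probe, which gave 15 sterol enzymes, all 9 fatty acid enzymes and all 4 control genes out of 10144 genes tested. Acat2, Mvk and Fdft1 were not analysed here. Of the 28, 26 were detected on all 12 arrays, and Fasn and Srebf1 on 10 arrays each.

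The series compared peripheral neural stem cells (pNSCs), which are self-renewing cells with neural stem cell features grown from tissue outside the central nervous system, with the neural stem cells and fibroblasts used as references. There were 6 groups of 2 arrays each. The groups were elpNSCs-early and elpNSCs-late (the embryonic limb line), alpNSCs-early and alpNSCs-late (the adult lung line), Control-NSC and Fibroblasts. All 12 samples carried the same strain label, a mixture of C57BL/6, CD1 and C3H, and no label gave an engineered allele, an agent, an age or the passages that early and late stand for. The study derived pNSCs both with and without a brief low-pH treatment. Its array plots name limb and lung lines derived with that treatment, while the labels of these samples give no treatment. In its methods a pNSC line started from a single cluster picked by hand and usually clonal. Each tissue is a single line label here, and the limb is embryonic while the lung is adult. Tissue, line and donor stage therefore cannot be told apart. pNSCs were kept in serum-free medium with EGF and bFGF, and the control neural stem cells came from brain and were grown in the same medium. The medium of the fibroblasts on the arrays was not given, and their cell type and culture cannot be told apart as a source of differences. The study's array methods call the samples biological replicates without defining the term. The labels number the replicates but do not say that they were separate cultures, so the p-values measure the spread between these samples.

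Between 11801 and 12836 of the 25697 probes were detected per array, and replicates correlated at r = 0.990 to 0.996 across genes. The cell labels were set against marker genes. Of 9 neural stem cell markers, 8 were detected on both arrays of every neural group, Msi1 being the exception, whereas Sox2, Olig2, Fabp7, Bcan and Ncan were detected on neither Fibroblasts array. Nes, Slc1a3 and Vim were detected on both Fibroblasts arrays. In Control-NSC, Nes was 17.39-fold and Slc1a3 19.1-fold higher than in Fibroblasts, but Vim was 3.91-fold lower. Of 9 fibroblast markers, Col1a1, Col1a2, Col3a1, Dcn, Lum, Pdgfrb and Postn were not detected in any neural group. All 9 were detected in Fibroblasts, 8 of them on both arrays. Col5a1 was detected in every neural group, and Thy1 in elpNSCs-early and Control-NSC. In Control-NSC they were 11.51-fold and 2.57-fold lower than in Fibroblasts. Of 7 adipocyte markers, 6 were not detected in any neural group, and Lpl was the remaining one. In elpNSCs-early against Control-NSC, 13.5% of all genes were called higher and 12.5% lower. Late against early in the limb line these shares were 11.7% and 12.1%. Of 6 astrocyte markers tested, 5 were higher and 1 lower in the first comparison, and 1 rose and 4 fell in the second. Their summed linear level was 6087 to 6283 in elpNSCs-early, 6289 to 7630 in elpNSCs-late and 6142 to 6334 in Control-NSC, and Gfap was not detected in elpNSCs-early or Control-NSC. Of 5 oligodendrocyte and myelin markers tested, Cldn11, Ugt8a and Cnp were higher and Bcas1 lower in elpNSCs-early than in Control-NSC, and Ugt8a rose 2.31-fold late against early in the limb line. The summed level of this list was 3543 to 3670 in elpNSCs-early, 1470 to 1640 in alpNSCs-early, 2854 to 3325 in elpNSCs-late, 3477 to 3754 in alpNSCs-late and 4549 to 5052 in Control-NSC, and Mog, Mag, Mobp and Mal were not detected in any neural group. Lpl was lower than in Control-NSC in elpNSCs-early (2.88-fold), alpNSCs-early (4.48-fold) and alpNSCs-late (3.31-fold), and it rose 3.01-fold in the limb line. The part of these markers in the results on lipid genes was not tested.

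Cholesterol is built from acetyl-CoA through mevalonate, farnesyl diphosphate, squalene and lanosterol, and fatty acids are built from the same acetyl-CoA through malonyl-CoA. Both pathways are switched on by sterol regulatory element-binding proteins (SREBPs), which Insig proteins hold back in the endoplasmic reticulum when sterols are plentiful. SREBP-2, the product of Srebf2, acts mainly on sterol genes, and SREBP-1, the product of Srebf1, mainly on fatty acid genes. Cells that divide need both products for new membrane, and brain cells make their own cholesterol, since little passes from the blood.

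Levels are given as normalized log2 intensities, on which a step of 1 is a doubling, and they are compared between groups for a single probe only. The difference of group means was tested with limma in a fit over all 12 arrays, p-values were adjusted over all genes tested in a comparison, and a gene is called at an adjusted p under 0.05. Because these are bulk samples, fewer cells with a transcript and less transcript per cell cannot be told apart. Among the 5 neural groups, Control-NSC had the highest mean for 19 of the 28 members, 12 of them among the 15 sterol enzymes and 4 among the 9 fatty acid enzymes. elpNSCs-early had the lowest mean of the 5 for 17 of the 28, with 9 of 15 sterol enzymes and 7 of 9 fatty acid enzymes. With Fibroblasts included, Fibroblasts were lowest for 7 of 9 fatty acid enzymes but for only 4 of 15 sterol enzymes.

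**Figure D1:**
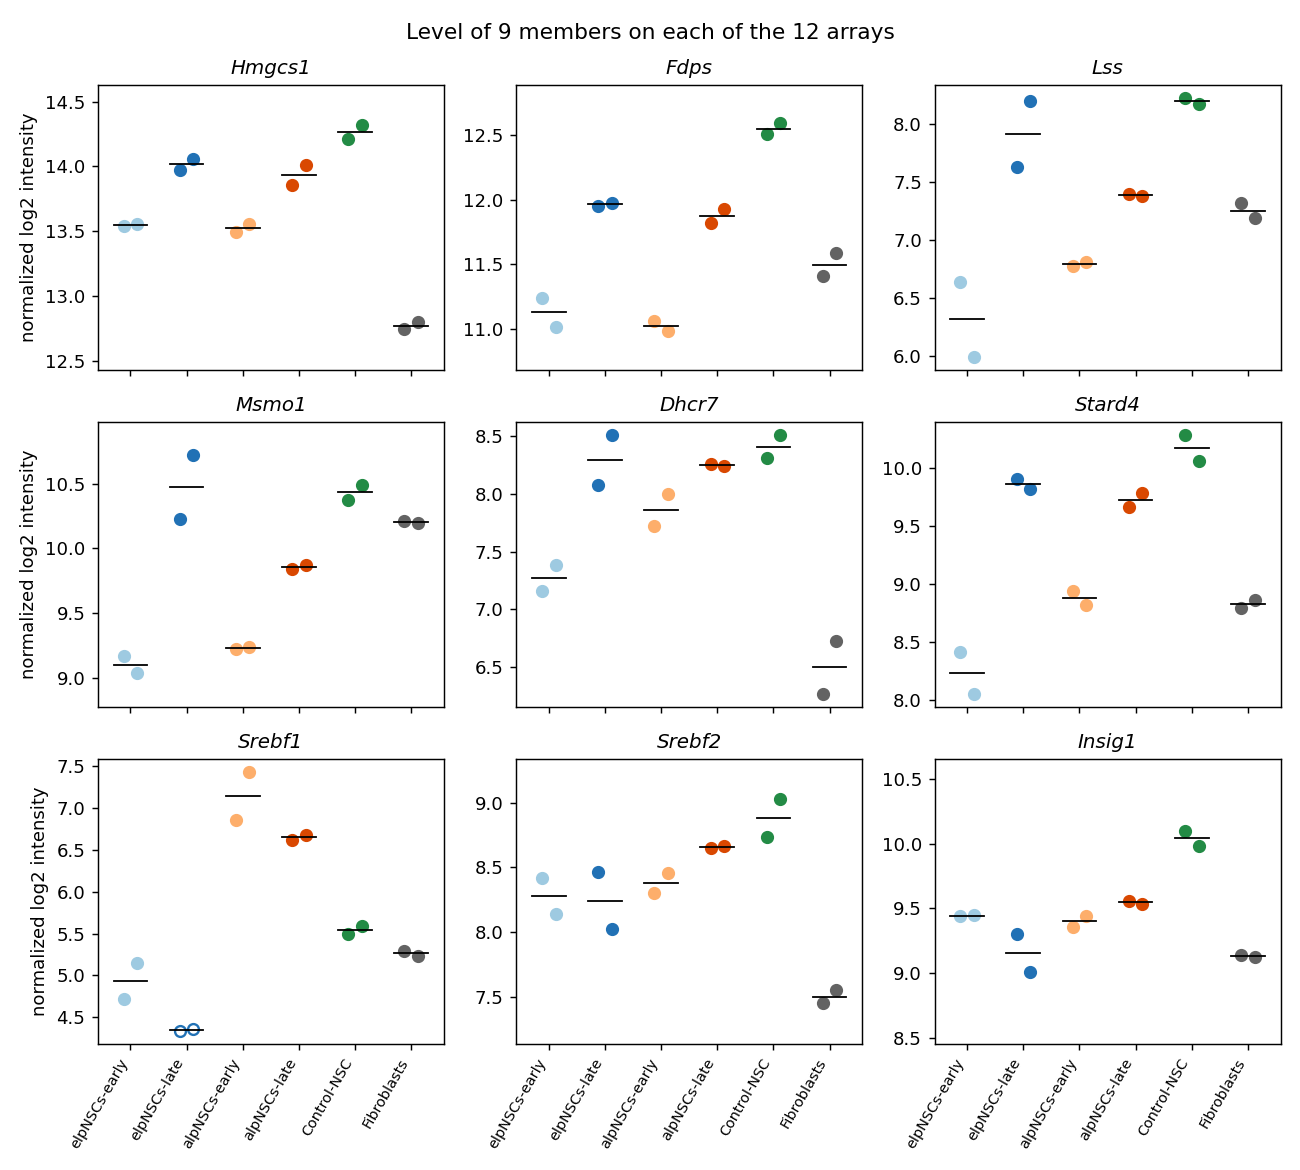
Normalized log2 intensity of 9 members (vertical axis, different range in each panel) on each of the 12 arrays in the 6 groups (horizontal axis); each point is an array, open points mark arrays on which the probe was not detected, and the bar is the group mean. For Hmgcs1, Fdps, Lss, Msmo1 and Stard4 both early pNSC groups lie below both late groups and Control-NSC, while Srebf1 is highest in both lung groups and open in elpNSCs-late.

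The promoters of 3 sterol enzymes, a control gene and a fatty acid enzyme are shown as examples of where 4 short motifs known from SREBP target genes stand in the lists. RefSeq windows of the GRCm38.p6 build were present for 22 of the 28 measured members. Fdps, Sqle, Scd1, Scd2, Fads1 and Stard4 are named only. The 250 bases before each start were searched on both strands for the sterol regulatory element TCACNCCAC, the E-box CACGTG, the CCAAT box CCAAT and the GC box GGGCGG, with no motif contained in another and the E-box reading the same on both strands. Capitals mark every match on either strand, and each window is printed from 5′ to 3′ on the gene's own strand, which is the plus strand for all 5. The windows belong to Hmgcs1 (chr13:119690101-119690350), Idi1 (chr13:8885356-8885605) and Lss (chr10:76531355-76531604) of the sterol pathway, to the control gene Insig1 (chr5:28071162-28071411) and to the elongase Elovl5 (chr9:77917115-77917364).
Hmgcs1: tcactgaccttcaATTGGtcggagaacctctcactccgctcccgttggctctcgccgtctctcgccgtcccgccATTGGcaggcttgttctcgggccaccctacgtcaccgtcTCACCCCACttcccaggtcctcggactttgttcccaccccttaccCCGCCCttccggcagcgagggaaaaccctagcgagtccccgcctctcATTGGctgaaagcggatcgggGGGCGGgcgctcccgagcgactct
Idi1: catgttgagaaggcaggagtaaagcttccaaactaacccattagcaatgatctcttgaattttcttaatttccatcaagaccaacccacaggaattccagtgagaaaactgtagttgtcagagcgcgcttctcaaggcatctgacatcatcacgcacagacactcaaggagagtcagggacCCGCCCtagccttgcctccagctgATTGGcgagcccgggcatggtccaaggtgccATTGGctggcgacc
Lss: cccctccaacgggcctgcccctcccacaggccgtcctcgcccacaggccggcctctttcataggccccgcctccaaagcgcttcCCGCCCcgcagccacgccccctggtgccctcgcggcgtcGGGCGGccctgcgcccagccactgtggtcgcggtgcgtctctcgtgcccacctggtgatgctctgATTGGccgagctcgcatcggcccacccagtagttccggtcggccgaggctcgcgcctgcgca
Insig1: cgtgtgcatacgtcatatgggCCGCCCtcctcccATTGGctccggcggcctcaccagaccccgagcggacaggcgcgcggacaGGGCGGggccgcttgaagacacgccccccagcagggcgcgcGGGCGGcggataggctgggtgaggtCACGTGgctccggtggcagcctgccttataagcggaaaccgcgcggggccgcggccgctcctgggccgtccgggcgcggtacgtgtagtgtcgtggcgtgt
Elovl5: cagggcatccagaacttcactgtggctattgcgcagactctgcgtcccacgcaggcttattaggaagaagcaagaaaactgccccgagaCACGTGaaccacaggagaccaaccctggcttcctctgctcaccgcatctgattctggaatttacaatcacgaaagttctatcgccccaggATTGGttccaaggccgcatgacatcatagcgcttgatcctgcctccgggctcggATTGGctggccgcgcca
A CCAAT box was present in 13 of the 13 sterol enzymes with a window, in 2 of 6 fatty acid enzymes and in all 3 control genes, against 37.5% of all 27025 genes with a window. A GC box was present in 12 of 13, 2 of 6 and 3 of 3 of these lists, against 35.4% of all genes. The E-box was found in 3 sterol enzymes, in Elovl5 and in Insig1, against 6.86% of all genes. The strict sterol regulatory element was found in Hmgcs1 alone of the 22, starting 137 bases before the start, against 1.22% of all genes. The shares over all genes include genes not detected on the arrays, unlike the members. A match says only that these letters stand in the window.

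Members were lower in the pNSCs than in Control-NSC, and most clearly so in the early cultures. In elpNSCs-early, 23 of 28 members were called lower and 0 higher, where 12.5% of all genes tested were called lower. They were 13 of 15 sterol enzymes, 6 of 9 fatty acid enzymes and all 4 control genes. In alpNSCs-early, 13 members were called lower (9 sterol enzymes, 2 fatty acid enzymes and 2 control genes), against 9.14% of all genes called lower. Srebf1 was the only member called higher there, against 9.02% of all genes called higher. The median log2 difference was -0.92 over the sterol enzymes and -0.60 over the fatty acid enzymes in elpNSCs-early, and -0.74 and -0.36 in alpNSCs-early, while the median over all genes was 0.01 in both comparisons. Both comparisons use the same Control-NSC arrays.

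Lss, the lanosterol synthase that closes the sterol rings, had log2 levels of 8.23 and 8.17 in Control-NSC. It stood at 6.64 and 5.99 in elpNSCs-early and at 6.78 and 6.81 in alpNSCs-early. All 4 early arrays were below both Control-NSC arrays, and the fall was 3.70-fold in the limb line (95% interval of the log2 difference -2.34 to -1.44) and 2.65-fold in the lung line, with adjusted p = 3.07e-05 and 0.000362. Fdps, the farnesyl diphosphate synthase at the branch to sterols and isoprenoids, was at 12.50 and 12.59 in Control-NSC, at 11.24 and 11.02 in elpNSCs-early and at 11.06 and 10.98 in alpNSCs-early. Again no early array reached a Control-NSC array, and the falls were 2.67-fold and 2.88-fold (adjusted p = 3.9e-06 and 2.07e-06). Stard4, a carrier that moves cholesterol between membranes, was at 10.29 and 10.06 in Control-NSC, at 8.41 and 8.06 in elpNSCs-early and at 8.94 and 8.82 in alpNSCs-early. It fell 3.83-fold and 2.45-fold (adjusted p = 8.86e-07 and 2.9e-05).

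Msmo1, the methylsterol monooxygenase, read 10.38 and 10.49 in Control-NSC, 9.17 and 9.04 in elpNSCs-early and 9.22 and 9.24 in alpNSCs-early, with falls of 2.52-fold and 2.30-fold. Mvd, which decarboxylates mevalonate diphosphate, read 8.60 and 8.53 in Control-NSC, 7.36 and 7.17 in elpNSCs-early and 7.24 and 7.42 in alpNSCs-early, with falls of 2.47-fold and 2.36-fold. For both genes all 4 early arrays lay under both Control-NSC arrays. In the fatty acid list the falls were smaller. The called members of elpNSCs-early lay between -0.53 for Elovl5 and -0.69 for Elovl6, and those of alpNSCs-early were Elovl6 at -0.59 and Fads2 at -0.80 on the log2 scale. The sterol enzymes not called lower in elpNSCs-early were Ebp (-0.27) and Tm7sf2 (0.13), a sterol isomerase and a sterol reductase.

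The late cultures stood nearer to Control-NSC in the means of both enzyme lists. In the limb line the means of Srebf1, Srebf2 and the brightest Insig1 probe were no nearer late than early. In elpNSCs-late, 5 members were called lower against 7.79% of all genes, and these were Fdps, Hsd17b7, Srebf1, Srebf2 and Insig1. In alpNSCs-late, 6 were called lower against 6.53% of all genes, namely Fdps, Mvd, Lss, Msmo1, Hsd17b7 and Insig1, and Srebf1 was called higher against 5.88% of all genes. No fatty acid enzyme was called in either late group, with 2 and 1 of the 9 under an unadjusted p of 0.05. Fdps stayed lower than Control-NSC in both, 1.50-fold in elpNSCs-late (11.95 and 11.98) and 1.59-fold in alpNSCs-late (11.82 and 11.93), with adjusted p = 0.00538 and 0.00226. Hsd17b7, a reductase of the sterol demethylation steps, was at 10.57 and 10.48 in Control-NSC, at 10.02 and 10.20 in elpNSCs-late and at 9.68 and 9.78 in alpNSCs-late, 1.33-fold and 1.74-fold lower. Without Control-NSC replicate 2 the count in elpNSCs-late was 2, and in alpNSCs-late the 7 calls became 4 without either array of alpNSCs-late or of Control-NSC.

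With the 4 pNSC groups averaged against Control-NSC, 17 of 28 members were called lower and 0 higher, where 9.75% of all genes were called lower. Of these, 11 were among the 15 sterol enzymes, 3 among the 9 fatty acid enzymes (Scd1, Elovl6 and Fads2) and 3 among the 4 control genes, with medians of -0.51, -0.32 and -0.57. The count fell to 9 when Control-NSC replicate 2 was left out.

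**Figure D2:**
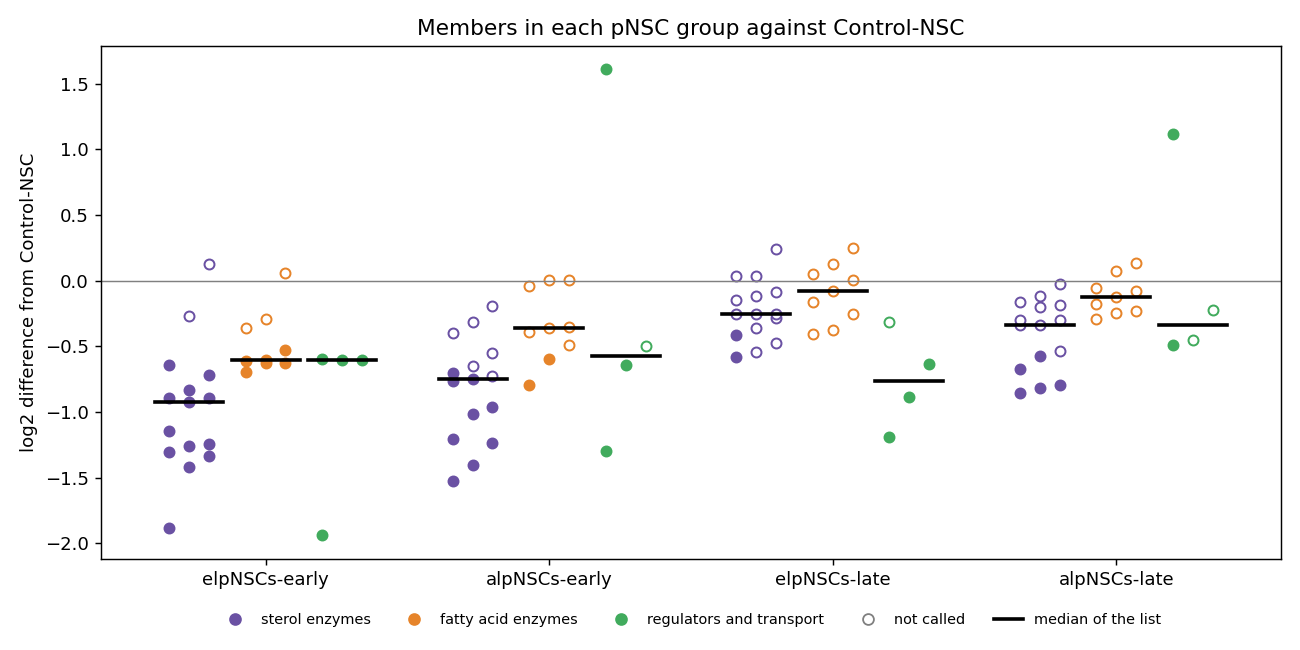
Log2 difference of each measured member from Control-NSC (vertical axis) in the 4 pNSC groups (horizontal axis), split into sterol enzymes, fatty acid enzymes, and regulators and transport; each point is a member, filled where called, and the bar is the median of the list. The sterol medians of -0.92 and -0.74 in the early groups lie under the fatty acid medians of -0.60 and -0.36, and most points of the late groups are open.

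Among the control genes, Srebf1 went its own way. Srebf1 had 2 probes on the array, and its values come from the 1 that passed the detection filter. Its log2 level was 6.86 and 7.44 in alpNSCs-early and 6.62 and 6.68 in alpNSCs-late, 5.49 and 5.59 in Control-NSC, and 5.29 and 5.24 in Fibroblasts. In the limb line it was 4.72 and 5.15 early and 4.34 and 4.36 late, where it was not detected on either array. All 4 lung arrays were above all other arrays. Against Control-NSC, Srebf1 was 3.06-fold higher in alpNSCs-early and 2.16-fold higher in alpNSCs-late (adjusted p = 4.12e-05 and 0.00107). It was lower than Control-NSC by -0.60 in elpNSCs-early and at least 1.76-fold lower in elpNSCs-late, where a bound is given because the probe was at background. The lung line exceeded the limb line 4.63-fold early (adjusted p = 3.71e-06) and at least 3.82-fold late (adjusted p = 2.6e-06). Of the 9 fatty acid enzymes, 7 had a higher mean in the lung line early and 4 late, with medians of 0.12 and -0.02 for lung minus limb on the log2 scale. Elovl5 was called early and none late, with 1 of 9 at an unadjusted p under 0.05 at each stage.

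Srebf2 was at 8.73 and 9.03 in Control-NSC, at 8.41 and 8.14 in elpNSCs-early, at 8.46 and 8.03 in elpNSCs-late, at 8.31 and 8.46 in alpNSCs-early, at 8.65 and 8.67 in alpNSCs-late and at 7.45 and 7.55 in Fibroblasts. No neural array was as low as a Fibroblasts array, and no pNSC array was as high as a Control-NSC array. It was called lower than Control-NSC in both limb groups (-0.60 and -0.64) and not in the lung groups (-0.50 and -0.22). Insig1, read by its brightest probe, was at 10.10 and 9.98 in Control-NSC, 9.44 and 9.45 in elpNSCs-early, 9.30 and 9.01 in elpNSCs-late, 9.36 and 9.44 in alpNSCs-early, 9.56 and 9.54 in alpNSCs-late and 9.14 and 9.12 in Fibroblasts. Every pNSC array lay between the Fibroblasts and Control-NSC arrays, apart from elpNSCs-late replicate 2, which was below Fibroblasts.

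Insig1 had 3 detected probes, and they disagreed. In a fit over probes, its brightest probe was -0.60 from Control-NSC in elpNSCs-early while the other probes were at -1.68 and -1.70. Late against early in the limb line, the brightest probe was at -0.29 (adjusted p = 0.13) and the others at 0.78 and 0.81 (adjusted p = 0.0347 and 0.0242). Early limb pNSCs against Fibroblasts, the brightest probe was at 0.31 (adjusted p = 0.0505) and the others at -0.62 and -0.70 (adjusted p = 0.0396 and 0.0187). The direction of Insig1 in the limb line therefore depends on the probe. Nsdhl, a sterol dehydrogenase with 4 detected probes, also had mixed signs against Fibroblasts. In alpNSCs-early its probes ran from -0.56 (adjusted p = 0.0274) to 0.17, and in elpNSCs-late from -0.02 to 0.78 (adjusted p = 0.000638), while its brightest probe was called in neither. Against Control-NSC and late against early, the probes of Nsdhl had the same sign, as did both probes of Sqle, the squalene epoxidase, in every comparison with a called probe. In alpNSCs-early against Control-NSC, the brightest Nsdhl probe was not called in the fit over probes (adjusted p = 0.0897). The other Nsdhl probes were called lower there (adjusted p = 0.00717 to 0.047), so that call depends on the probe.

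The desaturase pair Scd1 and Scd2 differed in calls against Control-NSC in elpNSCs-early only. Scd1, which makes oleate from stearate, was at 11.17 and 11.22 in Control-NSC, 10.70 and 10.44 in elpNSCs-early, 10.62 and 10.97 in elpNSCs-late, 10.77 and 10.84 in alpNSCs-early, 11.08 and 11.17 in alpNSCs-late and 10.47 and 10.43 in Fibroblasts. Scd2, the form most used in brain, was at 9.28 and 9.68, 9.49 and 9.59, 9.07 and 9.39, 9.49 and 9.47, 9.58 and 9.53, and 7.96 and 7.79 in the same order. In Scd2 the arrays of each pNSC group overlapped those of Control-NSC, and the 5 neural groups lay above Fibroblasts by 1.36 to 1.68 on the log2 scale, 2.56-fold to 3.21-fold. Scd1 was called lower in elpNSCs-early (-0.63) than in Control-NSC, while Scd2 differed there by 0.06 (95% interval -0.27 to 0.39). Neither was called against Control-NSC in any other single pNSC group, and the difference between Scd1 and Scd2 was not tested.

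The change from early to late culture was asked in each line. In the limb line 17 of 28 members rose, against 11.7% of all genes called higher, and Srebf1 was called lower, against 12.1% of all genes. The 17 were 12 of 15 sterol enzymes, 4 of 9 fatty acid enzymes (Acly, Acaca, Elovl5 and Elovl6) and Stard4. In the lung line 5 members rose, against 2.11% of all genes, and 0 fell. They were Pmvk, Fdps, Msmo1, Fads2 and Stard4. Srebf1 in the limb line was at least 1.16-fold lower late than early (adjusted p = 0.0335), a bound because the late arrays were at background. That call was lost with an offset of 50 (adjusted p = 0.196), without background correction (0.219), without the detection filter (0.0666), with only the limb arrays (0.106) and without elpNSCs-early replicate 2 (0.196), either elpNSCs-late array (0.106 and 0.11) or either Fibroblasts array (0.0521). The median change was 0.77 for sterol enzymes and 0.48 for fatty acid enzymes in the limb line, and 0.39 and 0.26 in the lung line, with medians over all genes of 0.00 in both. In the lung line all 15 sterol enzymes had a positive difference, of which 7 reached an unadjusted p under 0.05 and 3 were called.

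Stard4 moved from 8.41 and 8.06 to 9.91 and 9.82 in the limb line, a rise of 3.09-fold (adjusted p = 9.43e-06). In the lung line it moved from 8.94 and 8.82 to 9.67 and 9.78, a rise of 1.80-fold (adjusted p = 0.00316). Every late array exceeded every early array in both lines, and the difference between the rises was tested below. Lss rose 3.04-fold in the limb line, from 6.64 and 5.99 to 7.63 and 8.20 (adjusted p = 0.000178). In the lung line it went from 6.78 and 6.81 to 7.40 and 7.38, a difference of 0.59 that was not called. Msmo1 rose 2.58-fold in the limb line, from 9.17 and 9.04 to 10.22 and 10.72, and 1.55-fold in the lung line, from 9.22 and 9.24 to 9.84 and 9.87 (adjusted p = 5.07e-05 and 0.0307). Fdps rose by nearly the same amount in both, 0.83 in the limb line and 0.85 in the lung line. Dhcr7, which reduces the last double bond on the way to cholesterol, rose 2.04-fold in the limb line, from 7.16 and 7.38 to 8.08 and 8.51.

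The number of calls in the limb line depended on a single array. elpNSCs-late replicate 2 was above replicate 1 for 12 of 15 sterol enzymes and 7 of 9 fatty acid enzymes, with median replicate 1 minus replicate 2 differences of -0.24 and -0.33, beside 0.01 over all genes. On replicate 1 the mean over the sterol enzymes was still above both early arrays (-0.34 from Control-NSC, against -0.96 and -0.99). Without elpNSCs-late replicate 2 the limb count was 8, and with only the 4 limb arrays in the fit it was 7. In the lung line the count was 2 or 3 when any array of alpNSCs-early, alpNSCs-late, Control-NSC or Fibroblasts was left out. Proliferation markers moved in the same directions. Of all genes, 12.5% were called lower than in Control-NSC in elpNSCs-early and 9.14% in alpNSCs-early. Late against early, 11.7% of all genes rose in the limb line and 2.11% in the lung line. Of the 8 proliferation markers tested, 6 were lower in elpNSCs-early and 4 in alpNSCs-early than in Control-NSC. In the limb line 7 of them rose, and in the lung line 2. Their summed linear level was 5085 to 5476 in elpNSCs-early, 6328 to 7039 in alpNSCs-early, 9295 to 9364 in elpNSCs-late, 9184 to 9366 in alpNSCs-late, 9065 to 9130 in Control-NSC and 1160 to 1198 in Fibroblasts. Of the 10 markers on the array, Ccnb2 and Bub1 were not detected in any group. The part of proliferation in the result was not tested.

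**Figure D3:**
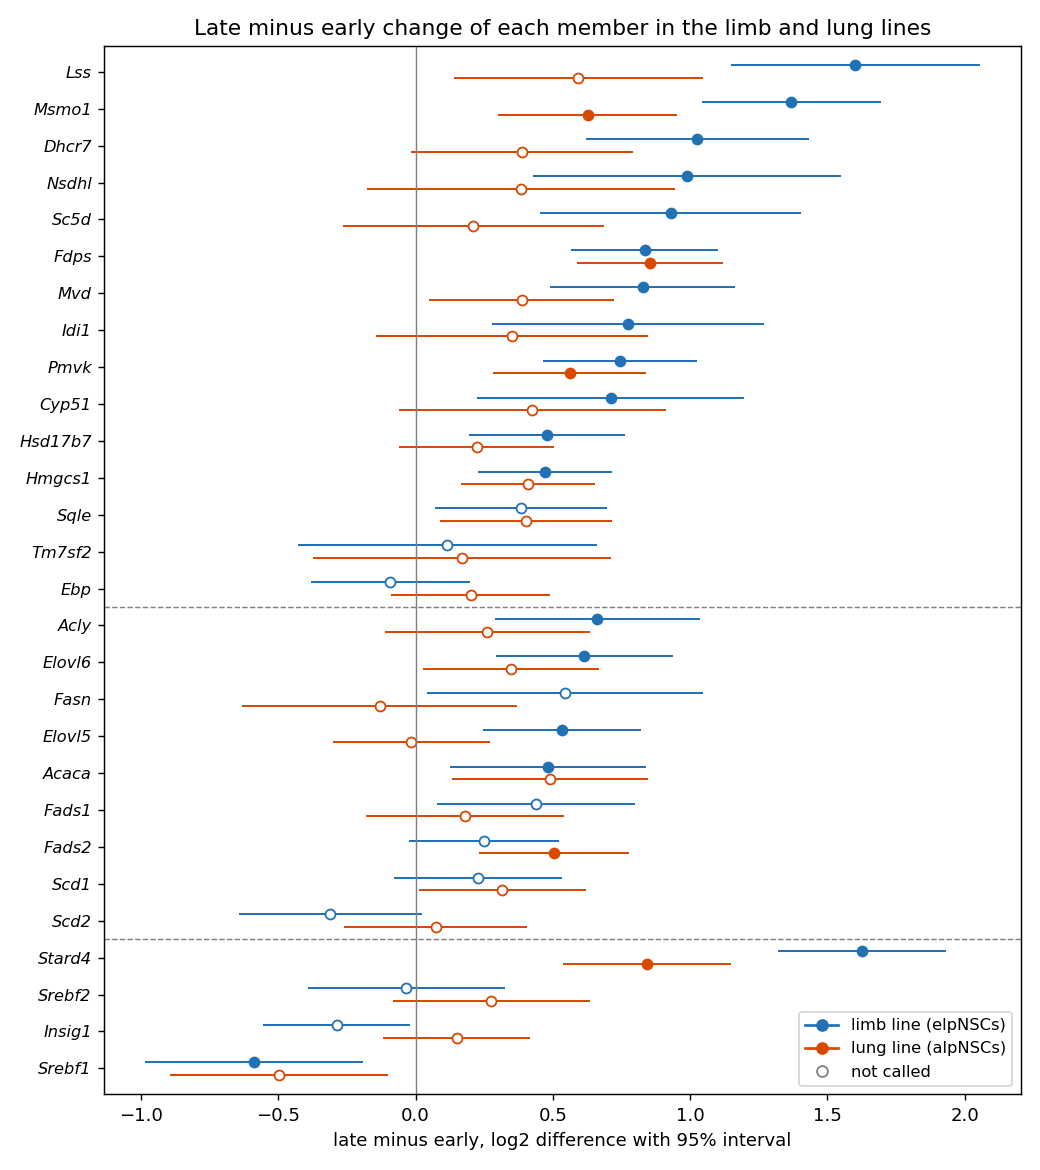
Late minus early log2 difference of the 28 measured members (horizontal axis) with its 95% interval, in the limb line and in the lung line; dashed lines part sterol enzymes, fatty acid enzymes, and regulators and transport from top to bottom, and filled points are called. Limb points lie to the right of lung points for Lss, Msmo1 and Stard4 (1.60, 1.37 and 1.63 against 0.59, 0.63 and 0.84), while Fdps is at 0.83 and 0.85.

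The difference between the lung change and the limb change was tested directly. Of the 28 members, 1 was called, lower in the lung line, against 2.47% of all genes called lower. It was Stard4, whose rise was 0.78 smaller on the log2 scale in the lung line than in the limb line (95% interval of lung minus limb -1.21 to -0.35, adjusted p = 0.0384). A further 6 members reached an unadjusted p under 0.05 without passing the adjustment. The medians of this difference were -0.29 for sterol enzymes and -0.26 for fatty acid enzymes, beside 0.00 for all genes. No member was called without any single array of the alpNSCs-early, alpNSCs-late or Fibroblasts groups or without elpNSCs-late replicate 2, whereas 3 were called without elpNSCs-early replicate 1 and 2 without elpNSCs-late replicate 1.

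Between the lines at the same stage, 3 of the 28 members were called early and 2 late. These counts were not above the shares of all genes called in either direction, 12.5% early and 10.9% late. Early, 3 members were called higher in the lung line, against 5.84% of all genes called higher, and these were Srebf1, Stard4 (1.56-fold) and Elovl5 (1.40-fold, from 11.02 and 11.36 to 11.62 and 11.73). Late, Srebf1 was called higher, against 5.29% of all genes, and Msmo1 was called lower in the lung line (1.53-fold), against 5.61% of all genes. The early count was 1 without alpNSCs-early replicate 1. The late count of 2 was 6 without elpNSCs-late replicate 1 and 1 without elpNSCs-late replicate 2 or either alpNSCs-late array.

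The medians of the sterol and fatty acid enzymes parted most clearly against Fibroblasts, in the early pNSC groups. In Control-NSC, 20 of 28 members were called higher than in Fibroblasts and 0 lower, where 34.7% of all genes were called higher. These were 9 of 15 sterol enzymes, 8 of 9 fatty acid enzymes (all but Fasn) and 3 of 4 control genes, with medians of 0.64, 0.85 and 1.13. Dhcr7 was 3.77-fold, Fads2 3.59-fold, Scd2 3.05-fold, Hmgcs1 2.82-fold and Srebf2 2.60-fold higher. Hmgcs1, the synthase that feeds the mevalonate pathway, read 14.21 and 14.32 in Control-NSC and 12.74 and 12.80 in Fibroblasts (adjusted p = 1.17e-07). Fads2, a desaturase of polyunsaturated fatty acids, read 8.16 and 8.34 in Control-NSC and 6.33 and 6.48 in Fibroblasts (adjusted p = 4.65e-08). Neither gene's arrays overlapped between the groups. All 8 proliferation markers tested were also higher in Control-NSC than in Fibroblasts. Of the adipocyte markers, Pparg, Adipoq and Lpl were detected on both Fibroblasts arrays and were called lower in each of the 5 neural groups, while Fabp4, Plin1, Cidec and Cd36 were not detected in Fibroblasts. The summed level of that list was 1358 to 1420 in Fibroblasts and 251 to 859 on the neural arrays. The part of both lists in the differences from Fibroblasts was not tested.

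In elpNSCs-early the medians of the enzyme lists lay on opposite sides of 0, with sterol enzymes called in both directions. There 12 members were called higher than in Fibroblasts, against 33.9% of all genes, and 9 lower, against 25.2%. Both counts were only somewhat above those shares. Of the sterol enzymes 4 were higher (Hmgcs1, Sqle, Tm7sf2 and Dhcr7) and 8 lower (Mvd, Idi1, Fdps, Lss, Msmo1, Nsdhl, Hsd17b7 and Sc5d), and of the fatty acid enzymes 6 were higher and 0 lower, with medians of -0.50 and 0.41. Msmo1 was 2.15-fold lower, at 9.17 and 9.04 against 10.21 and 10.20 in Fibroblasts (adjusted p = 3.44e-05). Hsd17b7 was 2.03-fold lower, at 9.61 and 9.65 against 10.50 and 10.81 (adjusted p = 1.95e-05). Fads2 was 2.33-fold higher, at 7.56 and 7.70 against 6.33 and 6.48. Without Fibroblasts replicate 2 the count of 21 was 13, and with each array scaled to its median the split was 6 higher and 9 lower, beside 7 and 9 in the values the authors normalized.

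alpNSCs-early had 12 members higher than Fibroblasts (34.7% of all genes) and 5 lower (25.9%), the count of 5 being below that share. The 5 were all sterol enzymes (Mvd, Idi1, Fdps, Msmo1 and Hsd17b7), and 7 of 9 fatty acid enzymes were higher, with medians of -0.32 and 0.55. Without alpNSCs-early replicate 2 the count of 17 was 11. In elpNSCs-late, 17 were higher (36.1%) and 2 lower (27%), the latter being Hsd17b7 and Srebf1, and in alpNSCs-late 16 were higher (35.6%) and 1, Hsd17b7, lower (26.5%). Late sterol medians were 0.31 and 0.15, and late fatty acid medians 0.86 and 0.83, beside medians over all genes of 0.12 and 0.13. The sterol median of alpNSCs-late lay near that of all genes. Hsd17b7 was thus below Fibroblasts in all 4 pNSC groups, by -1.02 early and -0.54 late in the limb line and by -1.15 early and -0.92 late in the lung line, while in Control-NSC it differed by -0.13 (95% interval -0.41 to 0.15). These 5 comparisons share the Fibroblasts arrays.

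**Figure D4:**
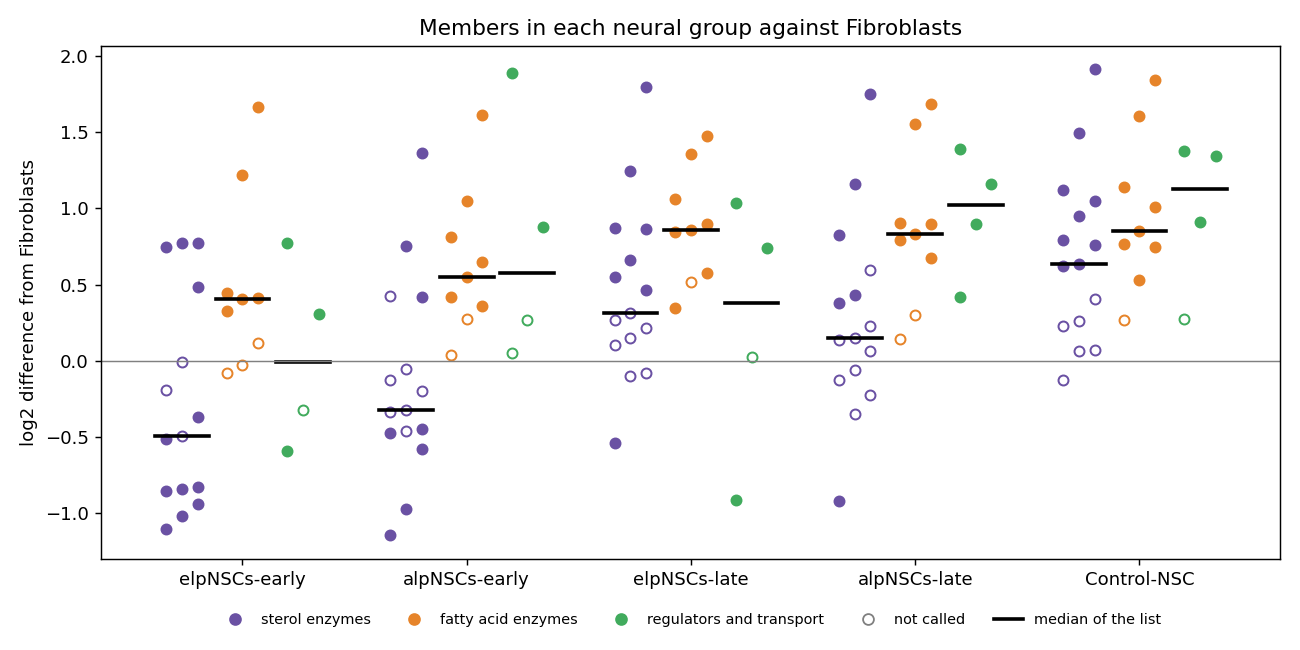
Log2 difference of each measured member from Fibroblasts (vertical axis) in the 4 pNSC groups and Control-NSC (horizontal axis), by list; points are members, filled where called, and bars are list medians. The sterol median is below 0 in both early groups (-0.50 and -0.32) and above 0 in the late groups and Control-NSC, while the fatty acid median is above 0 in all 5. The median over all genes is itself above 0, at 0.11 to 0.13 in the 5 comparisons.

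**Figure D5:**
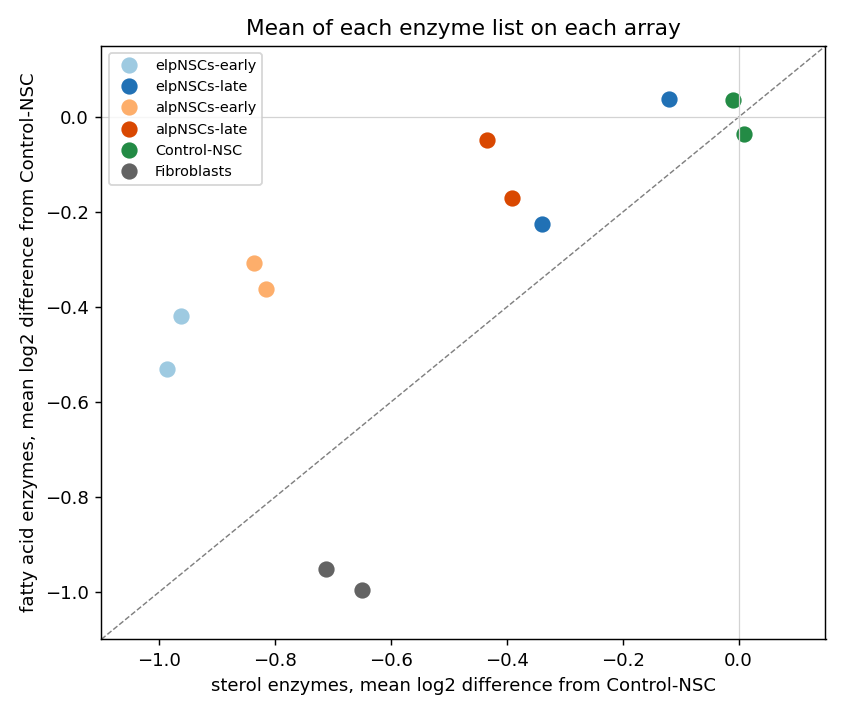
Mean log2 difference from the Control-NSC mean over the 15 sterol enzymes (horizontal axis) and the 9 fatty acid enzymes (vertical axis) on each of the 12 arrays; the dashed line marks equal values. All 8 pNSC arrays lie above the line, with the early arrays at -0.82 to -0.99 in sterol and -0.31 to -0.53 in fatty acid enzymes, whereas both Fibroblasts arrays lie below it at -0.65 and -0.71 in sterol and -0.996 and -0.952 in fatty acid enzymes.

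The plot of list means by array sets the enzyme lists side by side on each sample. The means over the 15 sterol enzymes were -0.96 and -0.99 in early limb pNSCs, -0.34 and -0.12 in late limb pNSCs, -0.82 and -0.84 in early lung pNSCs and -0.43 and -0.39 in late lung pNSCs. Those over the 9 fatty acid enzymes were -0.42 and -0.53, -0.22 and 0.04, -0.36 and -0.31, and -0.05 and -0.17 in the same order. The early and late arrays of a line did not overlap in either list, and on every pNSC array the sterol mean was the lower of the pair.

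Neighbouring steps of lipid metabolism were read from further lists. Of 8 genes of sterol uptake and SREBP control tested, 3 were higher and 1 lower in elpNSCs-early than in Control-NSC, where 13.5% of all genes were called higher and 12.5% lower, and of 7 genes of sterol efflux and esterification 1 was higher and 0 lower. Of 25 further genes of fatty acid and glyceride synthesis 3 were higher and 5 lower, and of 15 genes of fatty acid oxidation 4 were higher and 1 lower. Slc25a20, the mitochondrial carnitine carrier that brings fatty acids in for oxidation, was at 8.30 ± 0.02 (SD, n = 2) in Control-NSC and at 9.71 ± 0.11 in elpNSCs-early, 2.67-fold higher (adjusted p = 7.05e-06). Apoe, the lipid carrier apolipoprotein E, was at 5.71 ± 0.06 in Control-NSC and at 7.21 ± 0.09 in elpNSCs-early, 2.83-fold higher. Aacs, which makes acetoacetyl-CoA from ketone bodies, and Acsl3, an acyl-CoA synthetase, were 2.20-fold and 1.95-fold lower there. Elovl4, an elongase of very long chains, was 1.48-fold higher.

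In alpNSCs-early 2 genes of uptake and SREBP control were higher and 2 lower, 1 efflux gene was higher, 3 synthesis genes were higher and 7 lower, and 2 oxidation genes were higher and 1 lower, where 9.02% of all genes were called higher and 9.14% lower. Slc25a20 (2.68-fold) and Apoe (2.16-fold) were higher there too, and Thrsp, a regulator of lipogenesis, was 2.82-fold lower, Mid1ip1, its paralogue, 1.77-fold lower and Vldlr, a lipoprotein receptor, 2.12-fold lower. Late against early, Apoe fell 4.03-fold in the limb line and 2.21-fold in the lung line, and Slc25a20 fell 1.79-fold and 1.85-fold. In the lung line these were the only called genes of the 4 lists, where 2.72% of all genes were called lower. In the limb line, where 11.7% of all genes were called higher and 12.1% lower, 5 of 15 oxidation genes fell and 0 rose, among them Decr1 (1.69-fold), Cpt2 (1.76-fold) and Slc25a20, and 5 of 25 synthesis genes rose and 2 fell, with Acsl6 2.42-fold higher.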

How the data were processed

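Total RNA from 12 mouse samples in 6 groups was measured on 1-colour Illumina bead arrays. The deposited tables give each array's raw probe intensity and a detection p-value, made by the authors with BeadStudio 3.2, and the authors also deposited normalized log2 values, for which the submitters' processing notes name lumi and RMA. The authors' log2 values gave r = 0.985 to 0.986 against the values of the present normalization, array by array, and served as an alternative.

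Raw intensities were background-corrected by normexp with the detection p-values (offset 16), quantile-normalized and put on the log2 scale with neqc of limma 3.58.1 (R 4.3.3). Of 25697 probes, 23978 had 1 gene symbol and 1719 none. Named probes with a detection p-value under 0.05 on 2 or more of the 12 arrays were kept, and each gene was read by its probe with the highest mean, which left 10144 genes. The number of arrays limits the precision: a model with 6 group means left 6 residual degrees of freedom, to which the empirical Bayes step added 5.82. Differences were tested two-sided with lmFit, contrasts.fit and eBayes, and p-values were adjusted by Benjamini-Hochberg over all genes tested in a comparison. The fit was tested on simulated data. A group in which a probe was detected on no array is given as a bound, from the higher, per array, of the probe's own value and the lowest detected signal.

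The members and the other gene lists were chosen with earlier results of these data known. In each comparison, values are given for at most the 5 largest rises and 5 largest falls among called members, values on every array for those of them with the smallest adjusted p, and always for Srebf1, Srebf2, Insig1, Scd1 and Scd2; a member outside this rule was named after its values were seen. At most 5 further pathway genes per comparison are named, by smallest adjusted p. Alternatives were the authors' normalized values, median scaling, an offset of 50, uncorrected background, a detection p of 0.01 or none, the mean of a gene's probes, a trended robust prior, a replicate block, only the groups compared, an added fold of 2, and leaving out each array.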

Additional observations from a re-analysis of the deposited data

Results flagged for a closer look

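Stard4, which codes for a cholesterol carrier, was the only 1 of the 28 members called as differing between the lines in its change from early to late culture. Of all genes, 2.47% were called lower and 3.18% higher in this comparison. The log2 change in the lung line minus that in the limb line was -0.78 (95% interval -1.21 to -0.35, limma adjusted p = 0.0384), with a rise of 1.63 in the limb line and 0.84 in the lung line, on 2 of 2 late arrays against both early arrays in each line. The difference was tested as an interaction term. It kept its direction under every alternative run, but the call was lost with the authors' normalized values (adjusted p = 0.0947), with only the groups compared (0.0929) and without 9 of the 12 arrays in turn (0.0648 to 0.143), the exceptions being elpNSCs-early replicate 1 and both Control-NSC arrays. It was also below the added fold of 2.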

How the results depend on the processing

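Counts are of the 28 measured members called in either direction. Asking for a fitted fold of at least 2 left, against Control-NSC, 2 for the mean of the pNSC groups, 8 and 1 for early and late limb pNSCs, and 7 and 1 for early and late lung pNSCs, 4 late against early in the limb line and 0 in the lung line, 0 for the difference between those changes, 1 early and 1 late between the lines, and against Fibroblasts 10 in Control-NSC, 4 and 6 in early and late limb pNSCs, and 5 and 6 in early and late lung pNSCs. The 1 in late limb pNSCs is Srebf1, whose probe was at background there, so that its fold is bounded only at 1.76. The 5 calls in elpNSCs-late against Control-NSC were 3 with the authors' normalized values, 8 with an offset of 50, 10 without background correction and 3 with median scaling. The 18 of the limb line were 7 with only the groups compared, and the 5 of the lung line were 2 with the authors' values and 3 with median scaling. The 1 call for the difference between the changes was 0 with the authors' values, 2 with an offset of 50, 3 without background correction, 3 with median scaling, 2 with a trended robust prior and 0 with only the groups compared. Between the lines, the 3 early calls were 1 with only the groups compared, and the 2 late calls were 1 with the authors' values, 4 with an offset of 50, 4 without background correction and 1 with only the groups compared. The cause was not tested.

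With the replicate number as a block, 2 members were called for the difference between the changes and 5 between the lines early, and no other count moved by over 1.5 times. The deviations of same-numbered arrays correlated at r = -0.15 to 0.24 over 15 pairs of groups. The labels do not say whether same-numbered arrays were handled together, and these correlations cannot decide it.

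Leaving out each array gave 9 to 19 calls for the mean of the pNSC groups against Control-NSC, 18 to 23 and 2 to 7 for early and late limb pNSCs, and 12 to 18 and 4 to 9 for early and late lung pNSCs. It gave 8 to 18 in the limb line, 2 to 6 in the lung line, 0 to 3 for their difference, 1 to 4 early and 1 to 6 late between the lines. Against Fibroblasts it gave 17 to 20 for Control-NSC, 13 to 21 and 16 to 20 for early and late limb pNSCs, and 11 to 19 and 15 to 18 for early and late lung pNSCs. Of 1886 alternative values of single named genes, 1740 kept direction and call, 146 lost the call and 0 reversed. The call of Srebf1 late against early in the limb line was lost with an offset of 50, without background correction and without the detection filter. Median scaling moved the median of all genes by 0.15 in the limb line. With 2 arrays a group, small differences could not be resolved, and probes near background, such as those of Fasn and Srebf1, have the least certain levels.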
